A study of Mus musculus with 9 samples.

Results

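The jejunum of 3 mice on feed G (mice 4, 8 and 11) was compared with that of 3 mice on feed B (mice 7, 8 and 10), which are 6 of the 9 arrays of a multigeneration feeding study. All were male mice of the outbred stock OF1, aged 7 weeks and of generation 3, and the feed of a group was kept over the generations. They ate and drank freely under a light/dark cycle until food was withheld for 3 hours of the light phase, and the hour at which each mouse was killed was neither written down nor randomized over the feeds. The remaining 3 mice were on feed K. The study addressed a maize diet, but what each of the feeds consisted of is not given in the sources used here, so neither feed is called the control. Mouse 8 of feed B and mouse 8 of feed G are different animals. Whether mice of a feed were littermates or shared a cage is not stated, so the p-values measure only the spread between these mice.

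Each array held the RNA of 1 mouse, taken from a piece of jejunum around the middle of the small intestine. In such bulk samples fewer cells of a type and less RNA per cell cannot be told apart. The arrays carry 60-mer probes read by chemiluminescence, and values are given as log2 of the quantile-normalized signal, averaged over the probes of a gene. A probe whose signal reached 3 times its noise counted as detected. Of 15674 gene symbols, 8916 were detected on 3 or more of these 6 arrays and were tested with limma. A difference is always feed G minus feed B on the log2 scale, and its standard error is abbreviated SE. The median 95% confidence interval of a difference, without adjustment for the number of genes, reached 1.61-fold to either side. Smaller changes of a typical gene were thus not detectable with 3 mice per feed. Larger ones could also miss the adjusted test: Dbp, at 5.26-fold, had an adjusted p of 0.559 (limma).

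Several of the genes with the smallest p belong to the circadian clock. In this feedback loop the proteins of Arntl (BMAL1) and Clock bind E-box sequences and switch on the Per, Cry, Nr1d and Dbp genes, the PER and CRY proteins then block them, and the NR1D (REV-ERB) repressors work through AGGTCA elements in genes such as Arntl and Nfil3. Dbp, Tef and Hlf encode activators, and Nfil3 a repressor, that share target genes. The clock runs in the cells of the gut as in most tissues, and meal times set its phase there. The other group described at length is the interferon response, in which IRF and other factors bind an interferon-stimulated element in genes of antiviral defence.

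Promoters of these genes, 250 bases before to 50 bases after the start in RefSeq (build GRCm38.p6), were searched on both strands for the E-box CACGTG, which reads the same on both strands, the element AGGTCA and the interferon element GAAANNGAAA. The motifs do not overlap each other in the stretches shown. Of all 32851 promoters, 7.15% hold the E-box, 16.3% the element AGGTCA and 3.44% the interferon element. Of the 13 members of the clock lists below an unadjusted p of 0.05, 9 have a promoter entry. Of these, 2 (Tef and Fkbp5) hold the E-box and 3 (Arntl, Nr1d2 and Nfil3) the element AGGTCA. Hlf and Fkbp5, among the 13, were detected on no array of feed B and passed the filter only through feed G. A gene counts if any of its promoters holds a match, and Arntl, Tef and Tsc22d3 have several, whereas the shares above are of single promoters. Of the 4 interferon genes, 3 have an entry and 2 hold the interferon element. The match in Arntl lies after the start and is not shown. The stretches are chosen because they hold a match before the start of a gene whose signal is given below, and capitals mark the match. For Tef they lie at chr15:81802534-81802563 and chr15:81811264-81811293 (+ strand, 2 start sites), for Fkbp5 at chr17:28486301-28486330 (- strand), for Nr1d2 at chr14:18239166-18239195 (- strand), for Nfil3 at chr13:52981040-52981069 (- strand), for Isg15 at chr4:156200871-156200900 (- strand) and for Ifit1 at chr19:34640785-34640814 (+ strand). In Isg15, 3 overlapping matches run together, and in Ifit1 there are 2 matches, on the opposite strand.
Tef, upstream start site: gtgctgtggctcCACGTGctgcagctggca
Tef, downstream start site: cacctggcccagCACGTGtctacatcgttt
Fkbp5: gcaagggccagaCACGTGggcagcggtgaa
Nr1d2: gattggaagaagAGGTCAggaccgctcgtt
Nfil3: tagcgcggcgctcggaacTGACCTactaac
Isg15: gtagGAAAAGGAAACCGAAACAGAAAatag
Ifit1: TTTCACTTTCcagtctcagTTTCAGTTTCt
A match is a description of these letters and not a site shown to be bound.

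No gene passed the adjusted test: limma called 0 of 8916 genes (0%) at an adjusted p below 0.05, and 1 gene when the variance was not moderated. The smallest adjusted p was 0.141, for Arhgap26. Below an unadjusted p of 0.05 there were 519 genes (5.82%), of which 341 (3.82% of those tested) were higher and 178 (2%) lower on feed G. The 3 mice of feed G all lay above the 3 of feed B for 551 genes (6.18%) and all below them for 430 (4.82%). These shares are the background against which the gene groups below are read, and no single gene below is a call. The count depended on 1 mouse: without mouse 10 of feed B, limma called 25 genes, 23 higher and 2 lower on feed G. Of these 25, 17 were detected on that mouse and not on mice 7 and 8 of feed B, and 2 were detected on all 6 arrays. The count of genes higher at an unadjusted p below 0.05 was then 771.

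**Figure D1:**
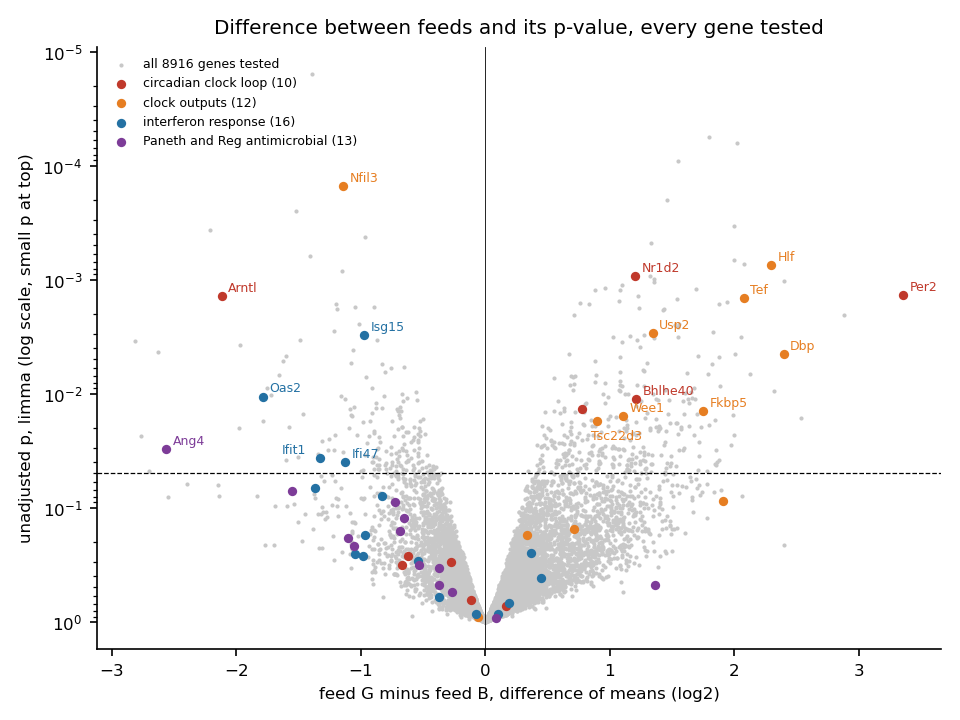
Each point is 1 of the 8916 genes tested, with the difference between feeds (log2, feed G minus feed B) on the horizontal axis and the unadjusted p of the limma fit on a reversed log axis; the dashed line marks 0.05. Coloured points are the tested members of 4 gene lists, those described in the text being named where p is below 0.05. Of the clock lists, 11 members lie to the upper right and 2 (Arntl and Nfil3) to the upper left, as do 4 interferon genes and Ang4.

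Within the clock loop the activator gene Arntl was lower on feed G and Nr1d2, Per2 and Bhlhe40 were higher. Of 16 genes listed, 15 were on the array and 10 were tested, with 4 higher and 1 lower at an unadjusted p below 0.05 against 3.82% and 2% of all genes. The median difference of the 10 was 0.03, compared with 0.06 over all genes tested. Arntl had a log2 signal of 9.84, 9.67 and 9.80 in mice 7, 8 and 10 of feed B and of 7.67, 8.63 and 6.67 in mice 4, 8 and 11 of feed G. The feed B mice lay close together and all above the feed G mice, of which mouse 11 was lowest. Its difference was -2.12 (SE 0.45), 4.34-fold lower on feed G (limma, unadjusted p = 0.00140, adjusted p = 0.385).

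Nr1d2, which encodes the repressor REV-ERB beta, had a log2 signal of 9.86, 10.34 and 9.47 on feed B and of 11.02, 11.22 and 11.04 on feed G. The feeds did not overlap and the feed G mice differed little among themselves. The difference was 1.20 (SE 0.24, adjusted p = 0.385). Per2, a repressor of the BMAL1 and CLOCK pair, had a log2 signal of 5.79, 8.62 and 6.63 on feed B and of 10.60, 9.36 and 11.15 on feed G, with a difference of 3.35 (SE 0.71, adjusted p = 0.385). It was detected in 1 feed B mouse and in all 3 feed G mice, so the size of that difference rests in part on noise. Bhlhe40 (DEC1), a repressor that competes for E-boxes, had a log2 signal of 9.65, 9.96 and 10.30 on feed B and of 10.84, 10.79 and 11.92 on feed G, the highest in mouse 11 of feed G. It separated the feeds without overlap, with a difference of 1.21 (SE 0.37, adjusted p = 0.724).

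The remaining 5 tested members of the loop had unadjusted p-values above 0.05. Nr1d1, the paralogue of Nr1d2, had a log2 signal of 10.62, 10.94 and 11.03 on feed B and 10.72, 10.65 and 10.89 on feed G, and its 95% interval ran from -0.67 to 0.44. Cry1 differed by 0.17 (SE 0.47), Csnk1e, the kinase that marks PER proteins, by -0.28 (SE 0.25), Clock by -0.67 (SE 0.62) and its paralogue Npas2 by -0.62 (SE 0.52). Npas2 did not overlap between feeds, although it was detected on only 1 array of feed B.

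Among the outputs of the clock, 12 genes were tested. At an unadjusted p below 0.05, 7 were higher and 1 was lower on feed G, against 3.82% and 2% of all genes. Both clock lists were chosen with earlier results of these data known. The median difference was 1.23, and Nfil3 was the member that was lower. Of the 7 higher genes, Hlf and Fkbp5 were detected on no array of feed B and entered the test only through feed G. Among the 8 outputs detected on all 6 arrays 4 were higher and 1 lower, with a median of 0.81, and with detection on 5 or more arrays the median was 0.90. Dbp had a log2 signal of 10.56, 12.46 and 9.98 on feed B and of 13.99, 13.46 and 12.73 on feed G. Mouse 8 of feed B, at 12.46, came close to mouse 11 of feed G. The difference was 2.39 (SE 0.62, 5.26-fold, adjusted p = 0.559). Tef, with E-boxes at both of its start sites, had a log2 signal of 9.74, 10.49 and 8.74 on feed B and of 11.93, 11.74 and 11.54 on feed G, 4.22-fold higher (difference 2.08, SE 0.45, adjusted p = 0.385). All 3 feed G mice exceeded all feed B mice by more than the range within feed G.

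Hlf was detected in 0 of the 3 feed B mice and in all 3 feed G mice, in which its log2 signal was 9.11, 8.16 and 7.56. With the feed B level set, array by array, to the dimmest detected probe unless Hlf was brighter, it was 4.25-fold higher on feed G. That fold is neither a test nor a strict lower bound, since an undetected spot can be brighter than the dimmest detected probe. Measured signals on feed B were 6.34, 6.25 and 5.36. Nfil3, the repressor that shares sites with Dbp, Tef and Hlf, was lower, with a log2 signal of 10.12, 9.85 and 10.23 on feed B and of 8.98, 9.02 and 8.77 on feed G. Its mice were tightly grouped on both feeds, and its adjusted p of 0.269 (difference -1.14, SE 0.17) was the smallest of the clock genes. Its size depends on the scaling: with each array scaled to its median, which moves the median of all genes to 0.54, Nfil3 stood at -0.58 with an unadjusted p of 0.112.

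Usp2, a deubiquitinase under clock control, had a log2 signal of 9.82, 10.54 and 9.70 on feed B and 11.79, 11.55 and 10.76 on feed G, a difference of 1.34 (SE 0.32, adjusted p = 0.480). Wee1, a kinase that delays mitosis, differed by 1.11 (SE 0.37) and was detected on 1 array of feed B. Tsc22d3 and Fkbp5 are both induced by glucocorticoids. Tsc22d3 differed by 0.90 (SE 0.30). Fkbp5, detected on no array of feed B, was 3.36-fold higher on feed G as measured (difference 1.75), which is not a test. The outputs at a larger p were Tfrc at 1.91, Rbm3 at 0.71, Nampt at 0.33 and Pdk4 at -0.06, and in each of them the feeds overlapped. Cipc, which encodes an inhibitor of CLOCK and was on neither list, was also among the 12 genes with the smallest p of those higher on feed G and detected on all 6 arrays, with a log2 signal of 9.66, 10.04 and 9.73 on feed B and 10.80, 10.51 and 10.99 on feed G (difference 0.96, SE 0.20, adjusted p = 0.385).

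The mice of feed K, which share the fit, gave a level to set beside these. Arntl stood at 9.44, 8.60 and 8.98, Nfil3 at 9.57, 9.41 and 9.42, Dbp at 12.69, 13.14 and 13.57 and Tef at 10.47, 11.03 and 11.57 in mice 1, 3 and 4 of feed K. For Nfil3 they lay between the mice of feeds B and G, for Arntl below all feed B mice, for Dbp within or just below the feed G range, and for Tef from the highest feed B mouse up to the feed G range. The hour of sampling was recorded for no mouse, and its part in these differences was not tested. The counts of the clock loop at an unadjusted p below 0.05 were 4 higher and 1 lower under all alternatives, apart from the stricter filter on dim genes, where 8 genes were fitted with 3 higher and 1 lower. For the outputs they ran from 4 to 9 higher and from 0 to 2 lower.

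**Figure D2:**
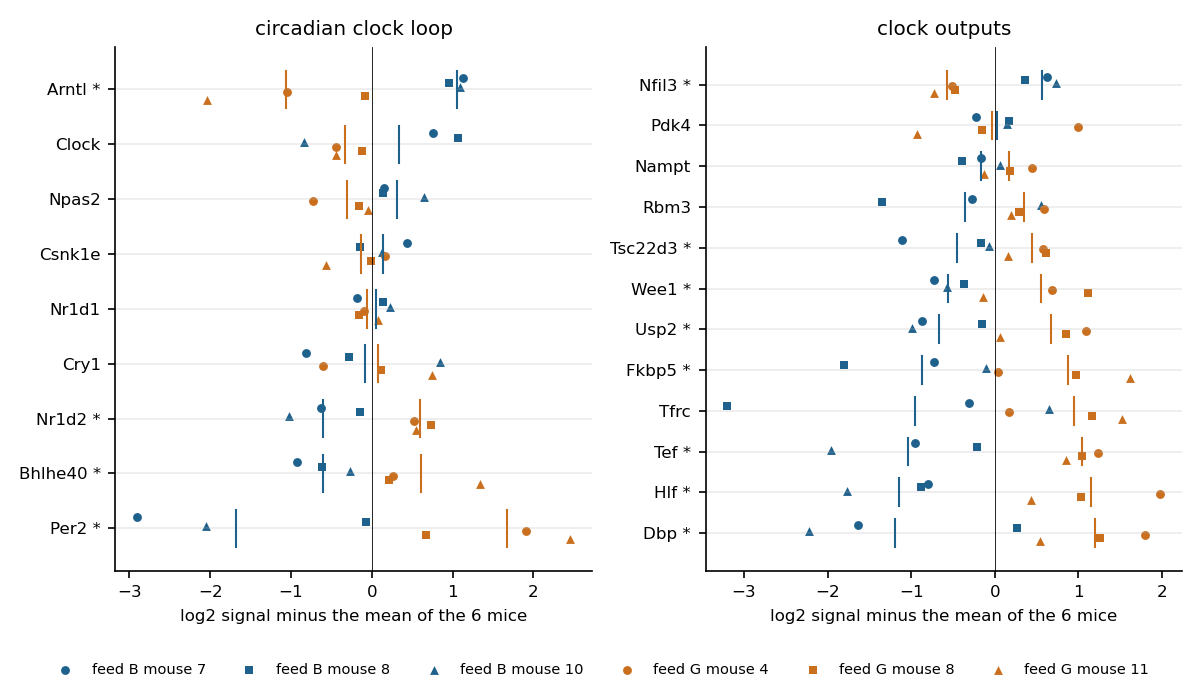
Each symbol is 1 mouse (blue, feed B; orange, feed G), drawn as log2 signal minus the mean of the 6 mice, for 9 tested genes of the clock loop (left) and the 12 tested clock outputs (right); vertical bars are feed means and a star marks an unadjusted p below 0.05. Arntl and Nfil3 have all blue symbols to the right of the orange ones, and Per2, Nr1d2, Bhlhe40, Dbp, Tef, Hlf and Usp2 the reverse.

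Genes of the interferon response were lower on feed G in part of the list, and the difference lay mainly between 2 of the feed B mice and the rest. Of 19 genes listed, 16 were tested, with a median difference of -0.90. At an unadjusted p below 0.05, 4 were lower and 0 higher, against 2% and 3.82% of all genes (limma called 0 after adjustment). Oas2, an enzyme that activates RNA decay on sensing double-stranded RNA, had a log2 signal of 10.09, 8.32 and 10.40 on feed B and of 8.16, 8.15 and 7.16 on feed G (difference -1.79, SE 0.54, adjusted p = 0.724). Ifit1, which binds foreign RNA ends, had 11.64, 9.82 and 11.06 on feed B and 9.94, 9.46 and 9.13 on feed G (difference -1.33, SE 0.54, adjusted p = 0.837). Mice 7 and 10 of feed B were high in both genes, whereas mouse 8 of feed B, at 8.32 and 9.82, stood near the feed G mice.

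Isg15, a ubiquitin-like protein attached to other proteins after interferon, had an average log2 signal of 9.28, 8.95 and 9.70 on feed B and of 8.48, 8.39 and 8.16 on feed G without overlap (difference -0.97, SE 0.24, adjusted p = 0.480). Of its 2 probes the brighter one differed by -1.67 and the other, detected on no array, by -0.27. Ifi47, a GTPase induced by interferon gamma, had 11.44, 10.00 and 11.01 on feed B and 10.09, 10.08 and 8.92 on feed G (difference -1.12, SE 0.46, adjusted p = 0.837). Mouse 11 of feed G was the lowest and mouse 8 of feed B overlapped with the remaining feed G mice. Of the members at a larger p, Oasl2 differed by -1.37 (SE 0.65) and Irf7, the factor that amplifies the response, by -0.83 (SE 0.41). Mx1 and Gbp2, which are also interferon targets, stood at 0.37 (SE 0.30) and 0.10 (SE 0.56).

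The interferon list depended on single mice of both feeds. Without mouse 7 of feed B the median was -0.15, with 2 members lower at an unadjusted p below 0.05, and without mouse 8 of feed B it was -1.23, with 10 lower and 1 higher. Without mouse 10 of feed B it was -0.70 with 2 lower, and without mouse 11 of feed G -0.61 with 2 lower and 1 higher. Under the scalings the median stayed below 0, at -0.32 with median scaling, -0.58 in the series table and -0.87 with scaling to detected genes. The counts were then 2 lower and 1 higher, 2 lower and 0 higher, and 4 lower and 0 higher. Without spots whose signal was below their noise, the median was -0.33 with 1 lower. Genes of antigen presentation, several of which interferon also induces, had a median of -0.41 over 10 tested, with 0 at an unadjusted p below 0.05 in either direction, and this median was 0.15 with median scaling and 0.05 without mouse 11 of feed G. The immunoproteasome subunit Psmb8 had a log2 signal of 13.13, 12.65 and 12.51 on feed B and 12.93, 12.54 and 10.23 on feed G, low in mouse 11 only.

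Paneth cells of the crypt secrete lysozyme, defensins and the ribonuclease angiogenin 4, and enterocytes add the Reg3 lectins. Of these antimicrobial genes 13 were tested, and 1 (Ang4) was lower on feed G at an unadjusted p below 0.05 and 0 were higher, with a median difference of -0.65. Ang4 had a log2 signal of 14.93, 14.31 and 15.79 on feed B and of 12.73, 14.59 and 10.03 on feed G (difference -2.56, SE 0.98, adjusted p = 0.827). Mouse 11 of feed G was far below the rest, and mouse 8 of feed G stood within the feed B range. The same mouse 11 was lowest for lysozyme (Lyz1), at 16.58, 17.85 and 14.38 on feed G against 17.57, 16.55 and 17.86 on feed B, and for intelectin 1 (Itln1), at 14.56, 15.83 and 12.25 against 16.01, 15.59 and 15.69. Without mouse 11 the median of the list was -0.095 and no member was below an unadjusted p of 0.05. Reg3b and Reg3g, the C-type lectins against bacteria, differed by -0.73 (SE 0.38) and -0.69 (SE 0.45), and the defensin probes Defcr3 and Defcr5, whose genes have near-identical copies that 1 probe may not separate, by -0.37 (SE 0.36) and -0.53 (SE 0.50). Pla2g2a, a secreted phospholipase of Paneth cells, had a log2 signal of 11.75, 16.26 and 16.91 on feed B and 16.14, 17.71 and 15.16 on feed G, far lower in mouse 7 of feed B than in the other mice.

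**Figure D3:**
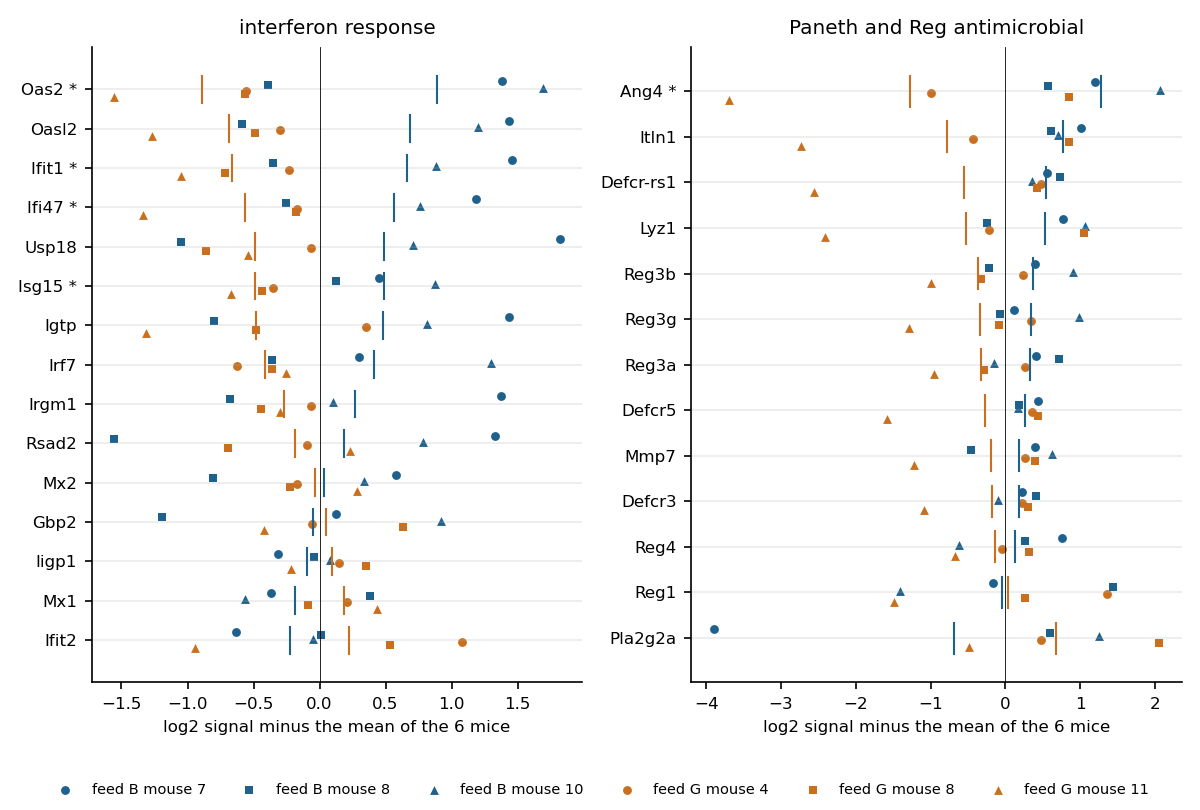
Each symbol is 1 mouse (blue, feed B; orange, feed G), drawn as log2 signal minus the mean of the 6 mice, for 15 tested interferon genes (left) and the 13 tested antimicrobial genes (right); vertical bars are feed means and a star marks an unadjusted p below 0.05. In the rows of Oas2, Oasl2, Ifit1 and Ifi47 mice 7 and 10 of feed B lie to the right and mouse 8 of feed B lies close to the orange symbols; on the right mouse 11 of feed G lies to the left in most rows.

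The tissue label was checked against markers. The jejunal enterocyte genes Fabp2, Apoa4 and Slc5a1 were detected on all 6 arrays, as were Gata4, Slc40a1 and Fabp1, which mark the proximal small intestine. The ileal marker Fabp6, the bile acid binding protein, varied widely within each feed, with a log2 signal of 15.81, 4.67 and 17.84 on feed B and of 8.10, 8.96 and 19.51 on feed G. It was high in mice 7 and 10 of feed B and mouse 11 of feed G, and detected on 2 arrays of feed B and 3 of feed G. The bile acid transporter Slc10a2 followed with 9.46, 7.64 and 12.05 on feed B and 6.53, 9.03 and 12.66 on feed G. The 4 ileal markers tested had a median of -0.58, their log2 summed signal ran from 15.82 to 18.45 on feed B and from 15.29 to 19.69 on feed G, and the feeds overlapped in each. Mice 7 and 10 of feed B were highest in Oas2, Ifit1, Isg15 and Ifi47. Mouse 11 of feed G was lowest in these genes and in Ang4, Lyz1 and Itln1. The part of the position of the piece along the gut in the interferon and antimicrobial results was not tested.

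Markers of other cell types, of the gut wall and of the pancreas, gave few genes below an unadjusted p of 0.05. For B cells 9 of 12 matched genes were tested, for plasma cells and IgA transport 8 of 8, for T cells 12 of 15, for smooth muscle 10 of 10, for enteroendocrine cells 12 of 15, for goblet cells 7 of 8, for mast cells 3 of 9, for enteric neurons and glia 5 of 12, for blood and endothelium 5 of 7 and for pancreatic acinar cells 2 of 11, with 0 at an unadjusted p below 0.05 in any of these lists. Log2 summed signals on feeds B and G ran from 11.95 to 12.88 and from 11.76 to 12.78 for B cells, from 11.57 to 13.78 and from 11.82 to 14.17 for T cells, and from 17.39 to 17.54 and from 16.83 to 17.64 for smooth muscle. The T cell list had a median of 0.40 over 12 genes, of which 1 was detected on all 6 arrays. Among 10 macrophage and dendritic cell genes 1 was higher on feed G at an unadjusted p below 0.05, the lysosomal Cd68 (1.12, SE 0.49, detected on 1 array of feed B), while the growth factor receptor Csf1r stood at -0.78 (SE 0.42). Among 8 adipocyte genes 1 was higher, Pparg, the fat cell nuclear receptor that the epithelium also expresses (1.21, SE 0.37).

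The matrix genes of the stroma had a median of -0.23 over 15 genes, with 2 lower and 0 higher on feed G at an unadjusted p below 0.05. Among all genes tested, 2% were lower and 3.82% higher at that threshold. Lum, a collagen-binding proteoglycan, had a log2 signal of 9.51, 9.03 and 8.85 on feed B and 7.84, 8.69 and 7.92 on feed G (difference -0.98, SE 0.42, adjusted p = 0.852), and Col1a2, a chain of fibrillar collagen, differed by -0.40 (SE 0.17, adjusted p = 0.845). Both separated the feeds, but with median scaling Col1a2 stood at 0.13 and the list median at 0.33. Of 10 chemokine genes and receptors, 2 were lower and 0 higher at that threshold, Ccl6 (-0.73, SE 0.32) and Cxcl12 (-0.51, SE 0.21). Neither stayed below it under each alternative: Ccl6 ran up to -0.18, and Cxcl12 was near 0 with median scaling.

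Among the genes of sugar handling, Slc5a1 was higher and G6pc lower on feed G at an unadjusted p below 0.05. Slc5a1, which carries glucose and galactose with sodium across the brush border, had a log2 signal of 15.03, 15.54 and 15.59 on feed B and of 16.68, 16.62 and 15.72 on feed G (difference 0.95, SE 0.29, 1.93-fold, adjusted p = 0.724). Mouse 11 of feed G, at 15.72, was only just above the highest feed B mouse. G6pc, the phosphatase that releases glucose from glucose-6-phosphate, had 12.02, 12.06 and 10.87 on feed B and 9.82, 9.41 and 7.30 on feed G (difference -2.81, SE 0.70, 7.01-fold lower, adjusted p = 0.485). All feed B mice exceeded all feed G mice, and G6pc was detected on 2 of the 3 feed G arrays. Slc2a5 and Slc2a2, the fructose and the basolateral hexose transporter, stood at 0.57 (SE 0.56) and 0.34 (SE 0.54), and Khk, the kinase of fructose breakdown, at 0.02 (SE 0.27). The median over the 9 genes was 0.24, with 1 higher and 1 lower. The sodium pump subunit Atp1b1, whose pump drives this uptake, had 15.75, 16.07 and 16.06 on feed B and 16.83, 16.82 and 16.33 on feed G (difference 0.70, SE 0.20, adjusted p = 0.655), and the phosphate carrier Slc20a1 differed by 1.49 (SE 0.60).

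Of 13 genes of fatty acid uptake and triglyceride synthesis, 1 was higher and 2 were lower on feed G at an unadjusted p below 0.05. Among all genes tested these shares were 3.82% and 2%. Dgat2, which makes triglyceride, was higher at 0.73 (SE 0.27, adjusted p = 0.788), whereas the acyltransferase Gpat3 (-0.58, SE 0.21) and the lipid droplet protein Plin3 (-0.54, SE 0.20) were lower. Over the alternatives the difference of Gpat3 ran up to -0.017, that of Plin3 up to -0.0039 and that of Dgat2 down to 0.43. None of these genes stayed below the unadjusted threshold under each alternative. The list of 13 had a median of -0.00044. Of 20 genes of cholesterol synthesis, 2 were higher, among them the mevalonate kinase Mvk (1.39, SE 0.49, detected on 1 array of feed B), and the median was -0.12. The median over 16 genes of fatty acid oxidation and ketogenesis was -0.0034. Apolipoproteins (9 tested, median -0.30), sterol transporters (7, 0.03), bile acid genes (6, -0.58), retinoid genes (8, -0.34), iron genes (5, -0.04), peptide and amino acid carriers (11, 0.10) and brush border hydrolases (11, 0.32) held 0 genes at an unadjusted p below 0.05.

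Single members stood out in the defence and detoxification lists. Mt1, a metal-binding metallothionein, had a log2 signal of 14.42, 15.48 and 13.97 on feed B and of 15.82, 15.53 and 15.62 on feed G, and its 2 probes differed alike, by 0.97 and 1.10 (average 1.03, SE 0.42, adjusted p = 0.837). The zinc exporter Slc30a1 was lower by 0.70 on the log2 scale (SE 0.24). Cyp2c55, a cytochrome P450 of the gut, had 11.48, 11.10 and 9.72 on feed B and 9.61, 9.52 and 9.55 on feed G (difference -1.21, SE 0.43), with the feed G mice together and the feed B mice spread out. Gstm3, a glutathione transferase, differed by -1.03 (SE 0.37), and the sulfotransferase Sult1a1 by 1.04 (SE 0.40). The adjusted p of these 5 genes ran from 0.787 (Slc30a1) to 0.837 (Mt1). The medians were -0.05 over 12 cytochromes, 0.15 over 14 conjugating enzymes and 0.03 over 14 antioxidant genes.

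Herpud1, a membrane protein of the endoplasmic reticulum that takes part in protein degradation there, was another of those 12 higher genes. Its log2 signal was 11.00, 12.03 and 11.91 on feed B and 12.89, 13.15 and 12.97 on feed G (difference 1.36, SE 0.27, 2.56-fold, adjusted p = 0.385). Other genes of the same stress pathway stood closer to 0: Hspa5 (BiP) stood at 0.15 (SE 0.21), Xbp1 at -0.04 (SE 0.20), and Ddit3 (CHOP) at 0.21 (SE 0.24). Hyou1, a chaperone, was lower at -0.76 (SE 0.29, adjusted p = 0.827), and the median of the 15 was 0.05. The heat shock list had a median of 0.41 over 15 genes, all detected on all 6 arrays, and 0 below an unadjusted p of 0.05. Its median lay between 0.25 and 0.65 when each mouse was left out. Hsph1 (HSP105) had 9.82, 10.14 and 10.94 on feed B and 10.68, 10.70 and 12.70 on feed G, highest in mouse 11 of feed G, and Hspb1 had 9.11, 9.39 and 10.17 on feed B and 10.06, 10.02 and 10.26 on feed G.

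The list medians of the large complexes of the cell lay near that of all genes. Of 52 genes of oxidative phosphorylation 0 passed an unadjusted p of 0.05, with a median of -0.14, and of 21 cell cycle genes 0 passed, with a median of 0.17. The median was 0.09 over 59 cytosolic ribosomal proteins (2 higher, 1 lower), -0.12 over 62 mitochondrial ones (3 higher, 1 lower), -0.16 over 30 proteasome subunits (1 lower) and -0.10 over 23 lysosome and proton pump genes (0). Single cytosolic ribosomal proteins ranged from -2.13 (Rps6) to 1.26 (Rps21). Rps6 differed by only -0.03 on its bright probe, and by -1.24 on a probe that no feed B array detected. Its average was 16.70 in mouse 10 of feed B against 12.10 and 12.56 in mice 7 and 8, and the bright probe had a feed B mean of 16.9. The -2.13 thus rests on mouse 10 of feed B, whose average held the bright probe only. Rps21 was detected on 1 array of feed B. Of the 62 mitochondrial ribosomal proteins 47 were below 0, and in 16 (25.8%) all feed G mice lay below all feed B mice, compared with 4.82% of all genes tested. Of the 30 proteasome subunits 26 were below 0, and 7 (23.3%) did not overlap in that direction. These signs depend on the scaling: the median of the mitochondrial ribosomal proteins was 0.41 with median scaling, 0.19 in the series table and 0.14 without spots whose signal was below their noise, and that of the proteasome subunits 0.39, 0.16 and 0.10, against 0.54, 0.31 and 0.32 for all genes. Several of the single differences past an unadjusted p of 0.05 rest on a dim probe. Mrpl27, a protein of the mitochondrial ribosome that was another of the 12 higher genes (1.03, SE 0.25), differed by 0.25 on its bright probe and by 1.80 on a probe that no feed B array detected. Rpl11 differed by 0.19 on its bright probe and 1.43 on the dim one. The same holds for the glycolytic Aldoa, with 0.31 on its bright probe and 2.04 on the dim one. Other lists held few genes past an unadjusted p of 0.05: Gata5 (lower) of 14 intestinal transcription factors, Cldn2 (lower) of 11 tight junction genes, Chac1 (higher, detected on no feed B array) of 9 genes of the amino acid response, Sms (higher, likewise) of 14 genes of citrulline, glutamine and polyamines, and 0 of 13 crypt stem cell genes and of 16 immediate early genes.

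**Figure D4:**
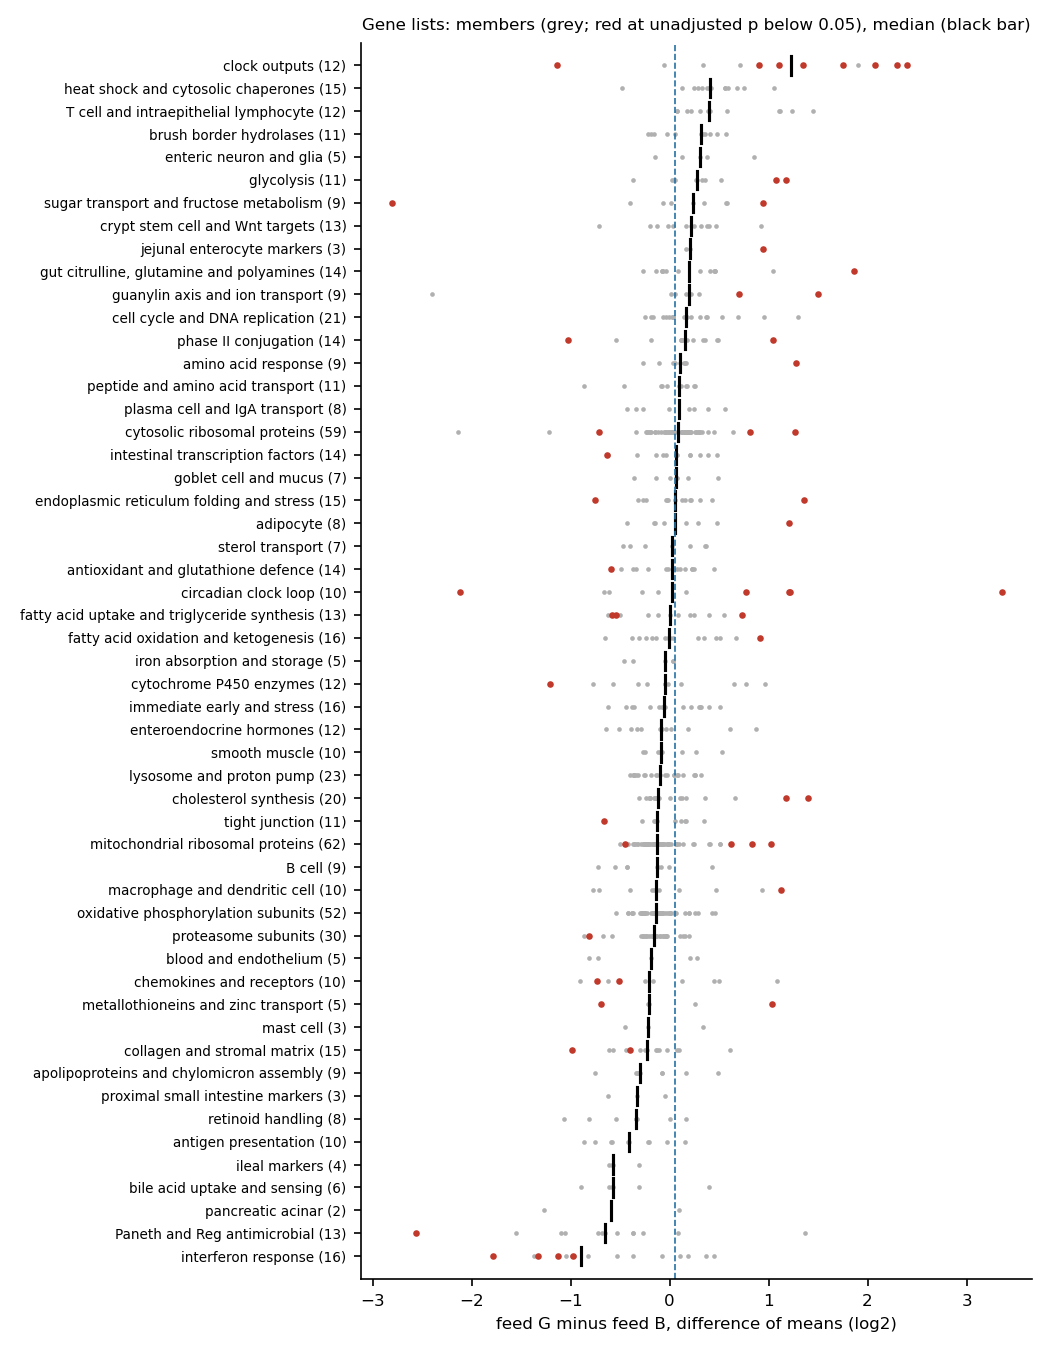
Each row is a gene list with the number of genes tested in parentheses, ordered by median; grey points are members, red points those at an unadjusted p below 0.05, black bars list medians, and the dashed blue line the median of all 8916 genes (0.06), all as differences between feeds (log2, feed G minus feed B). The clock outputs lie to the right with a median of 1.23, and the interferon and the antimicrobial lists to the left with -0.90 and -0.65.

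Outside the lists, Arhgap26, a brake on small GTPases, gave the smallest p of all. Its log2 signal was 9.43, 9.23 and 9.48 on feed B and 7.89, 8.05 and 8.02 on feed G, 2.63-fold lower (difference -1.39, SE 0.16, unadjusted p = 1.59e-05). The mice of each feed lay close together, and the feed K mice, at 9.22, 9.31 and 9.20, lay near those of feed B. Without moderation of the variance it passed the adjusted test (limma's linear model, adjusted p = 0.0170). Fmo1, a flavin monooxygenase that oxidizes drugs and sulfur compounds, had 10.41, 10.99 and 10.60 on feed B and 9.37, 9.32 and 8.75 on feed G (difference -1.52, SE 0.25, adjusted p = 0.320). Vnn1, the pantetheinase of the gut epithelium, had 12.80, 12.48 and 12.11 on feed B and 11.03, 11.60 and 11.18 on feed G (difference -1.20, SE 0.26, adjusted p = 0.385). In both genes the feed G mice lay below all feed B mice. Others of the 12 lower genes were Ier5 (-0.96), 4930451I11Rik (-1.41), Hsd17b6 (-1.05), a steroid dehydrogenase, Tmc5 (-0.89), Adck1 (-1.19) and Pfkfb4 (-1.01), which sets the level of a regulator of glycolysis, besides Nfil3 and Arntl.

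Mertk, the receptor kinase by which phagocytes take up dying cells, had the smallest p of the genes that were higher on feed G and detected on all 6 arrays. Its log2 signal was 11.09, 11.73 and 11.01 on feed B and 12.77, 12.74 and 12.31 on feed G (difference 1.33, SE 0.24, 2.52-fold, adjusted p = 0.385). Banp, a DNA-binding nuclear protein, had 10.51, 10.10 and 10.97 on feed B and 11.58, 11.79 and 12.18 on feed G (difference 1.33, SE 0.26, adjusted p = 0.385). The feeds did not overlap in either gene. The others of the 12 were Fam102a (1.08), the kinase Tesk2 (0.88), Zfyve19 (0.71), which acts in the last step of cell division, and Sh3rf1 (1.28), a scaffold of stress kinase signalling, besides Nr1d2, Herpud1, Cipc, Tef, Usp2 and Mrpl27. Of the 24 genes, 5 (Nr1d2, Tef, Usp2, Nfil3 and Arntl) were members of the clock lists, which hold 10 and 12 of the 8916 genes tested. These lists were chosen with earlier results of these data known, so the count is a description only.

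Detection differed between the arrays in the direction of the counts. On feed B 37.4%, 34.1% and 44.4% of the probes that had not failed were detected in mice 7, 8 and 10, and on feed G 47.5%, 49.4% and 47.7% in mice 4, 8 and 11. The mean was 38.6% ± 5.22 (SD, n = 3) on feed B and 48.2% ± 1.02 (SD, n = 3) on feed G, and all feed G arrays exceeded all feed B arrays (two-sided exact permutation test, p = 0.1, the smallest that 20 splits allow). Detection on all 3 arrays of a feed and on none of the other was found for 193 genes on feed G and for 3 on feed B. Only 36.1% of the genes higher on feed G at an unadjusted p below 0.05 were detected on all 6 arrays, compared with 77.5% of those that were lower, and among the 6026 genes detected on all 6 arrays 123 were higher and 138 lower. The share of higher genes among those below an unadjusted p of 0.05 was 65.7% here, 98.4% with median scaling, 86.6% in the series table, 50.4% among the 7230 genes that 5 or more of the 6 arrays detected and 43.4% with scaling to the genes detected on all 9 arrays. Which direction held more genes thus depended on the scaling and on the filter.

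**Figure D5:**
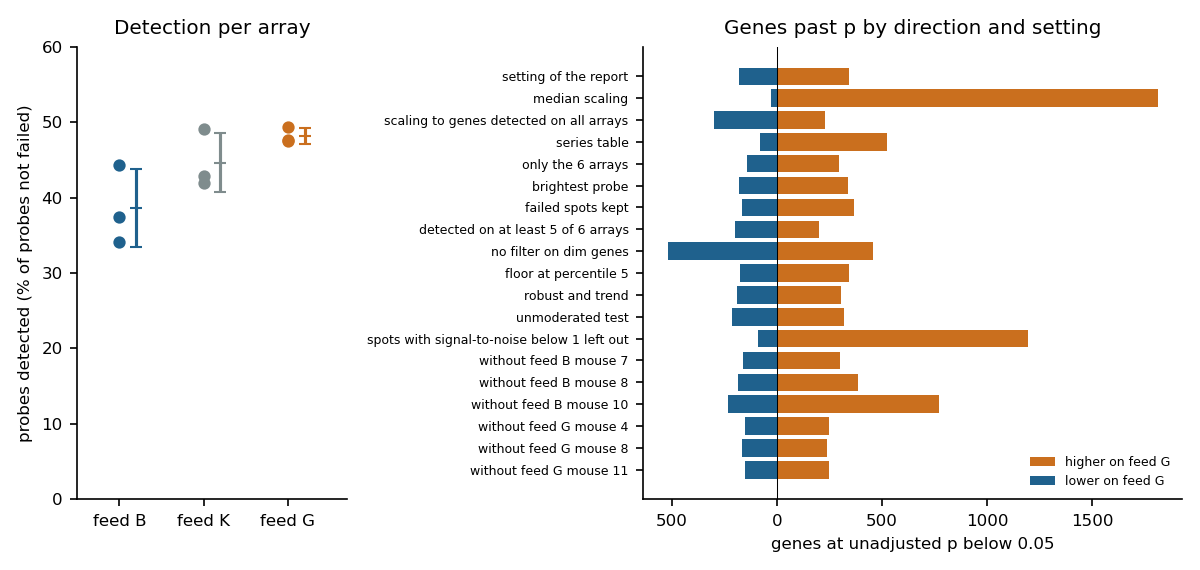
Left, the percent of probes detected on each array (points; grey, feed K) with the mean and SD of the 3 mice of a feed (bar): the feed G arrays lie between 47.5% and 49.4% and the feed B arrays between 34.1% and 44.4%. Right, the number of genes higher (orange) or lower (blue) on feed G at an unadjusted p below 0.05 under each setting, from 341 and 178 in the setting of the report to 1810 and 29 with median scaling and 230 and 300 with scaling to detected genes.

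The genes detected on 1 feed only passed the filter through that feed, so their differences are not tests. Where the measured signal on the other feed was lower, the dimmest detected probe of the array replaced it. The resulting folds are not strict lower bounds, because detection is judged spot by spot. Mcoln1, for example, was detected on no feed B array, with a mean log2 signal of 10.40 there. On feed G only, the largest fold was 5.86 for Pcgf2, a polycomb ring finger protein, with a log2 signal of 8.62, 7.97 and 8.72 on feed G. Gpat4, an enzyme of glycerolipid synthesis, was 4.31-fold higher, with 8.37, 8.61 and 8.98. Hlf (4.25-fold) followed, then the splicing-related Sugp2 (3.99-fold, as measured) and BC027373 (3.98-fold). On feed B only, Mmp16, a membrane-bound matrix metalloproteinase, was 3.76-fold higher, with 7.91, 8.12 and 7.76 on feed B. Atp2b3, a calcium pump of the plasma membrane, was 2.57-fold higher. Spata20 was 1.71-fold higher as measured, but its mice overlapped between the feeds (limma, unadjusted p = 0.161).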

How the data were processed

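Jejunal RNA was measured on 9 single-colour Applied Biosystems arrays, 1 mouse each, 3 per feed. Per the file headers, the deposited signal intensity of a spot was corrected for background and spatially normalized by the scanner software, and it comes with a signal-to-noise score and a quality flag score. The authors also deposited assay-normalized signal intensities, and what these are divided by is not stated. At a signal-to-noise ratio below 1 the deposited signal equals the standard deviation of the spot, so that such values are noise.

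Failed spots (flag above 5000) were dropped. After quantile normalization across all 9 arrays and log2 transformation, the probes sharing a gene symbol were averaged. Genes detected (signal at least 3 times the noise) on 3 or more of the 6 arrays were tested with limma 3.58.1 (R 4.3.3; lmFit and eBayes) in 1 fit with 3 feed means over 9 arrays, and p-values were adjusted by the Benjamini-Hochberg method over all 8916 genes, with a threshold of 0.05. The fit was tested on simulated data. Detection was compared by an exact permutation test (scipy 1.17.1). Lists are described by counts and medians, without a test. Of 903 list entries, 830 were matched to the array.

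The members and lists were chosen with earlier results of these data known. Genes are named by rule: the 12 higher and 12 lower with the smallest p among those detected on all 6 arrays, up to 5 per feed detected on that feed only, list members with an unadjusted p below 0.05, and in each list the member that differs most. Other list members were named after their values were seen. The alternatives were other scalings, the series table, the 6 arrays alone, the brightest probe, failed spots kept, other filters, a floor at percentile 5, other tests, and leaving out each mouse. Leaving out spots whose signal was below their noise was added after seeing the data. Some genes are not reported here.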

Additional observations from a re-analysis of the deposited data

How the results depend on the processing

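The number of genes higher on feed G at an unadjusted p below 0.05 was 341, and became 1810 with median scaling, 524 in the series table, 201 with detection on at least 5 of 6 arrays and 1195 without spots whose signal was below their noise. The number lower was 178, and became 29 with median scaling, 300 with scaling to genes detected on all arrays, 81 in the series table, 519 with no filter on dim genes and 87 without those spots. Leaving out 1 mouse at a time gave 240 to 771 higher and 150 to 234 lower, and 0 to 25 genes after adjustment, with 25 only without mouse 10 of feed B. The unmoderated test called 1 gene after adjustment and leaving out the spots below noise called 3. The median of the clock loop (0.03) was 0.54 with median scaling, 0.30 in the series table and 0.38 without those spots, and lay between -0.17 and 0.30 when each mouse was left out. The median of the clock outputs was 1.69 with median scaling and 0.90 with detection on at least 5 of 6 arrays. When each mouse was left out, it lay between 1.04 and 1.40, the interferon median between -1.23 and -0.15 and the antimicrobial median between -0.94 and -0.095.

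Without the spots below noise the sign turned for Mrpl27 (-5.31), Aldoa (-0.95), Sod1 (1.34), Rpl11 (-2.71) and Atp6v1g1 (1.95), whose probes then enter the average on unequal numbers of mice. With median scaling it turned for Col1a2 (0.13), Cxcl12 (0.0036), Mrpl35 (0.10), Abcg8 (0.064), Fth1 (0.084), Tpsb2 (0.11), Atp5k (0.024), Shmt2 (0.30), Tagln (0.26) and Vip (0.39). In the series table it turned for Shmt2 (0.090), Tagln (0.048) and Vip (0.18), and without the spots below noise also for Shmt2 (0.093) and Vip (0.12). When each mouse was left out, the sign turned for Ccl5 (-0.53 to 1.49), C1qb (-0.035 to 1.57) and Vip (-0.43 to 0.052). The cause was not tested. Of the 110 genes named by rule and reported here, 41 kept their direction and side of the unadjusted threshold under each alternative in which they were fitted. Of these, 33 were fitted under all 18. Both counts include genes that stayed above the threshold, such as Psmb8, Fabp1 and Cd79b. Those that stayed below it under all 18 included Arntl, Nr1d2, Bhlhe40, Dbp, Tef, Usp2, Oas2, G6pc, Slc5a1, Mertk, Banp, Herpud1, Arhgap26 and Fmo1. Per2, detected in 1 feed B mouse, also kept its direction and stayed below it, but was not fitted with detection on at least 5 of 6 arrays. The 41 also include genes detected on 1 feed only, such as Hlf, whose differences are not tests. No paired analysis was possible because feeds B and G share only the number 8, which names different mice. The number of arrays limits the precision.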
